A study of Mus musculus with 4 samples.

Results

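Genes that mark the stem cells of the intestinal crypt, or that respond there to WNT signals, were followed in CD8αβ+ T cells sorted from the intestinal epithelium and from the spleen. The genes were *Lgr5*, *Olfm4*, *Ascl2*, *Smoc2*, *Rgmb*, *Rnf43*, *Axin2*, *Sox9*, *Ephb2* and *Ephb3*, and every probe that the array annotation gives 1 of these names was taken, whatever its signal. This made 10 of 27376 gene names, 20 of 41174 probes and 29 of 43379 spots that are not controls. CD8αβ+ intraepithelial lymphocytes (IELs) came from the epithelium of the small intestine and CD8αβ+ splenocytes (SPLs) from the spleen of untreated male wild-type mice that were 8 to 12 weeks old, with 2 samples per group and 1 array per sample. The mice had a C57BL/6 background, cells positive for CD45, CD3, CD8β, CD8α and TCRβ were sorted, and each sample pooled the cells of several mice. The p-values measure only the spread between these pooled samples.

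In the crypt, WNT ligands and R-spondins act through Frizzled receptors and their co-receptors to stabilize β-catenin, which then works with TCF/LEF factors to switch on target genes. *Lgr5* is the best-known marker of the cycling stem cells at the crypt base, and it encodes a receptor for R-spondins. T cells use TCF1 and LEF1, members of the same factor family encoded by *Tcf7* and *Lef1*, in thymic development and in naive and memory cells. The samples were bulk RNA, in which fewer cells of a type and less RNA per cell cannot be told apart.

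The signals were read by probes of 60 bases, and 4 of them are shown. The pair for *Olfm4* is shown because both probes separated IEL replicate 1 from the other 3 arrays. Those for *Sox9* and *Ephb2* are the member probes whose annotated positions span more than their own length, 853 and 1398 bases of the genome, so that they lie across an intron. All are given 5′ to 3′ in lower case, with their mm9 positions and strands, and no base is capitalized because no motif was searched.
Olfm4 A_52_P607507, chr14:80421398-80421457, plus strand: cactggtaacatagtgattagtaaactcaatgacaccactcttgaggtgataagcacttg
Olfm4 A_52_P828218, chr14:80421539-80421598, plus strand: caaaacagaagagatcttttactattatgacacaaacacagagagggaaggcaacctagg
Sox9 A_51_P451606, chr11:112644310-112645162, plus strand: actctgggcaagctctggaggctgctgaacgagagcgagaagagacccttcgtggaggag
Ephb2 A_51_P163714, chr4:136213476-136214873, minus strand: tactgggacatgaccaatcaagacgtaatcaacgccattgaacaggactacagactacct

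The *Olfm4* probes begin 141 bases apart on chromosome 14 and share no base. Those of *Smoc2* begin 131 bases apart, whereas the 4 probes of *Rgmb* are spread along chromosome 17 with 1124, 2114 and 12883 bases between neighboring starts. Exons and untranslated regions were not assigned, because gene models of mm9 were not used here.

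Signals are processed intensities, in the arbitrary units of the scanner, from which the software had subtracted the background. A normalized level is the log2 of that intensity minus the log2 of the array's 75th percentile, which was 311.9 to 604.7 units on the 4 arrays. The scanner software called 63.7% to 69.8% of spots well above background, and the dimmest probe so called had 6.08 to 7.45 units. IEL replicate 1 and SPL replicate 2 lay on slide 1, and IEL replicate 2 and SPL replicate 1 on slide 2. Across 27911 probes, which are not independent, Pearson's r was 0.991 for the pair on slide 2, 0.986 for SPL replicates, 0.946 for IEL replicates and 0.911 for the pair on slide 1. IEL replicate 2 thus resembled SPL replicate 1 more than it did the other IEL array, and results that rest on either are given by array or without it. Its label was kept, whether the label matches the sample was not tested, and every fold of 2 against 2 arrays rests on it. The 9 CD8 T cell markers, such as *Cd3e* and *Cd8a*, passed the background call on all 4 arrays.

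Of the 20 probes, 4 were well above background on all 4 arrays (25090 of 41138 probes, or 61%, were so overall) and 6 on no array (27.3% overall). The 4 belonged to *Ascl2*, *Rnf43*, *Axin2* and *Ephb3*. *Lgr5* was the single member with no probe called on any array. The counts by array were 11 for IEL replicate 1, 7 for IEL replicate 2, 9 for SPL replicate 1 and 8 for SPL replicate 2. A set of these signals separated IEL replicate 1 from the rest, since 5 probes of 4 members, *Olfm4*, *Smoc2*, *Sox9* and *Ephb2*, were well above background there and on no other array. That is 25% of the member probes, against 0.844% of all probes (347 of 41138).

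**Figure D1:**
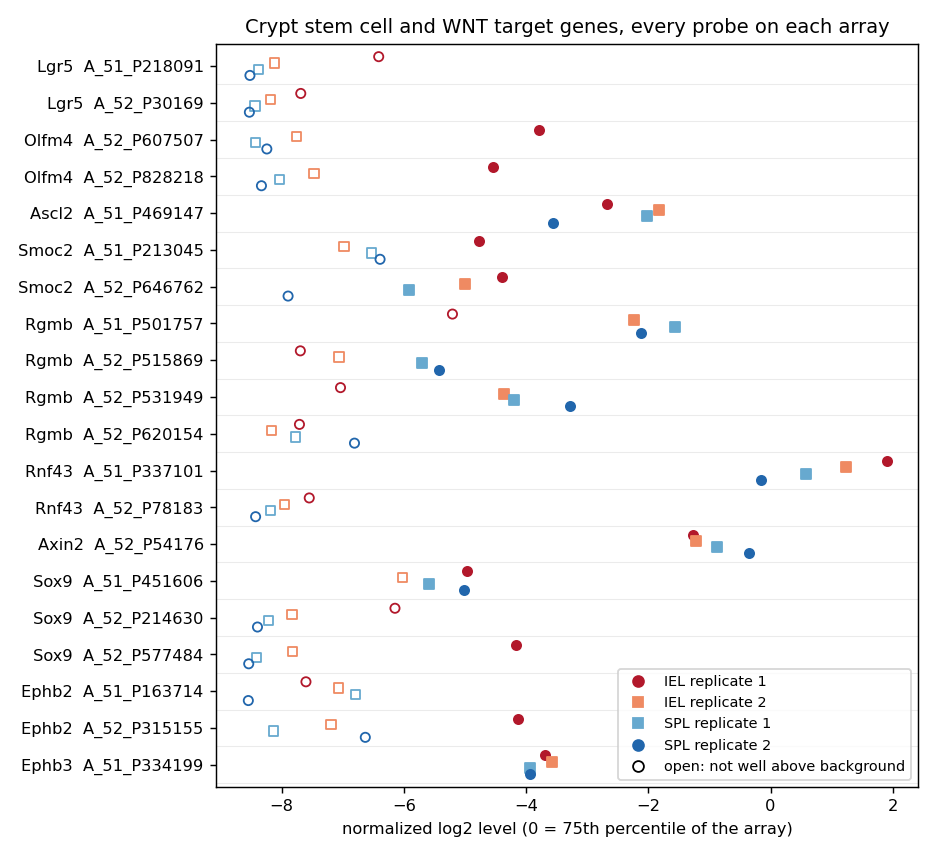
Normalized log2 level (horizontal axis, 0 is the 75th percentile of the array) of each of the 20 probes on the 4 arrays, with filled points where the probe was well above background and open points where it was not. IEL replicate 1 alone has filled points for both *Olfm4* probes and for 1 probe each of *Smoc2*, *Sox9* and *Ephb2*, whereas the points of *Lgr5* are all open.

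*Lgr5*, whose product binds R-spondins and raises the response of stem cells to WNT, was not well above background by either probe. The probe A_51_P218091 (chromosome 10, 114888847 to 114888906) had 3.66 and 1.56 units on IEL replicates 1 and 2 and 1.44 and 1.65 units on SPL replicates 1 and 2. On IEL replicate 1 this was above the 95th percentile of the 153 negative control spots, at 2.03 units, but it was not called well above background. The probe A_52_P30169 had 1.38 to 1.64 units, and the software had replaced its signal with a surrogate value on all 4 arrays. No fold is given for *Lgr5*. Its uncalled signals set no exact limit, since some probes brighter than the dimmest call on an array were also not called.

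*Olfm4*, which encodes a secreted glycoprotein that is abundant in crypt base stem cells, was well above background on IEL replicate 1 by both probes. The intensity of A_52_P607507 was 22.5 units on IEL replicate 1 and 2.00 units on IEL replicate 2, against 1.39 and 2.00 units on SPL replicates 1 and 2. For A_52_P828218 the values were 13.4 and 2.45 units on IEL replicates 1 and 2, and 1.82 and 1.88 units on SPL replicates 1 and 2. The probes therefore gave the same picture, with a high array and 3 arrays near the negative controls. Where an array was not well above background, a level below that of the dimmest probe so called there was raised to it. Higher levels were kept as measured. The folds obtained are given as lower limits, but they are not strict. Some probes brighter than the dimmest call were also not called, such as an *Rgmb* probe with 8.46 units on IEL replicate 1, against 6.08 units for that call. On slide 1 *Olfm4* was at least 5.87-fold and at least 3.50-fold higher in CD8αβ+ IELs than in CD8αβ+ SPLs by the respective probes. IEL replicate 1 was also at least 4.20-fold and at least 2.51-fold above IEL replicate 2, so the split ran within the group as well as between the groups. *Olfm4* was not tested, because no group had both arrays well above background.

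*Ascl2*, a WNT-induced transcription factor that maintains the stem cell state and is also used by some T helper cells, was well above background on every array (A_51_P469147, chromosome 7, 150154439 to 150154498). Its intensity was 49.1 and 123 units on IEL replicates 1 and 2, and 118 and 51.1 units on SPL replicates 1 and 2. After scaling, the level was -2.67 and -1.82 in CD8αβ+ IELs and -2.03 and -3.56 in CD8αβ+ SPLs, so that the groups overlapped. The arrays of slide 2 held the highest levels and SPL replicate 2 the lowest. The log2 fold change was 0.55 (-0.55 under normexp, an alternative background correction, and -0.22 without SPL replicate 2, SE 0.64, 95% interval -1.16 to 2.26), and limma's adjusted p was 0.737.

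*Smoc2*, which encodes a matrix protein enriched in *Lgr5* stem cells, was higher in CD8αβ+ IELs by the probe that could be tested, except under normexp, where its log2 fold change turned to -0.91. A_52_P646762 (chromosome 17, 14540516 to 14540575) had 14.8 and 13.6 units on IEL replicates 1 and 2, and 7.92 and 2.54 units on SPL replicates 1 and 2. All but SPL replicate 2 were well above background, and both CD8αβ+ IELs lay above both CD8αβ+ SPLs. The log2 fold change was 2.21 (SE 0.73), or 4.62-fold with the dim array taken as measured, and limma gave an unadjusted p of 0.0354 and an adjusted p of 0.634. With single arrays left out the lowest value was 1.22, when SPL replicate 2 was omitted, and the highest 3.20, when SPL replicate 1 was. On slide 1 *Smoc2* was at least 3.86-fold higher in CD8αβ+ IELs, and on slide 2 the log2 difference was 0.92. The neighboring probe A_51_P213045 had 11.4 and 3.44 units in CD8αβ+ IELs and 5.17 and 7.21 units in CD8αβ+ SPLs, so that its groups overlapped. On that probe IEL replicate 1 was at least 2.97-fold above SPL replicate 2, while on slide 2 neither array was well above background.

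*Rgmb*, which encodes a co-receptor for bone morphogenetic proteins and is listed among *Lgr5* stem cell genes, was lower in CD8αβ+ IELs by 3 of its 4 probes. The first, A_51_P501757 (chromosome 17, 15941859 to 15941918), had 8.46 and 92.4 units on IEL replicates 1 and 2, and 162 and 139.5 units on SPL replicates 1 and 2. A_52_P531949 had 2.38 and 21.3 units in CD8αβ+ IELs, and 26.2 and 62.0 units in CD8αβ+ SPLs. A_52_P515869 had 1.51 and 3.25 units in CD8αβ+ IELs, neither well above background, and 9.18 and 14.0 units in CD8αβ+ SPLs, both well above it. On each of the 3 probes both CD8αβ+ SPLs lay above both CD8αβ+ IELs, and IEL replicate 1 was the lowest array and not well above background. The fourth probe, A_52_P620154, had 1.49 to 5.40 units and passed the background call nowhere.

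By A_51_P501757 the log2 fold change of *Rgmb* was -1.88 (SE 1.05), by A_52_P531949 it was -1.95 (SE 0.98) and by A_52_P515869 it was -1.81 (SE 0.32). In limma the adjusted p was 0.634 for each of them, and under the second version of normexp, fitted without spots far below their local background, the direction of A_52_P515869 turned (0.25). These are fitted values that take dim arrays as measured and are no bounds. On slide 1, CD8αβ+ SPLs were 8.51-fold above CD8αβ+ IELs by A_51_P501757. This fold is as measured and no bound, because IEL replicate 1 was brighter than the dimmest call there. By the lower limits, CD8αβ+ SPLs on slide 1 were at least 5.26-fold above by A_52_P531949 and at least 1.19-fold above by A_52_P515869. On slide 2 the log2 differences were -0.67 and -0.16 for the first 2 probes, and A_52_P515869 was at least 1.12-fold higher in CD8αβ+ SPLs. Over both slides its limit was 1.15-fold. All 3 probes were tested only because both CD8αβ+ SPLs were well above background. The size of the mean fold rests on IEL replicate 1, since without it A_51_P501757 gave -0.39 and A_52_P531949 gave -0.61. Without IEL replicate 2 all 3 probes passed the threshold as lower, with limma's adjusted p at 0.00782, 0.0139 and 0.0121, but the single IEL array was then below the background call on each. That fit called 8.53% of all tested probes higher and 11% lower, and its single IEL sample is assumed to vary like the CD8αβ+ SPLs.

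**Figure D2:**
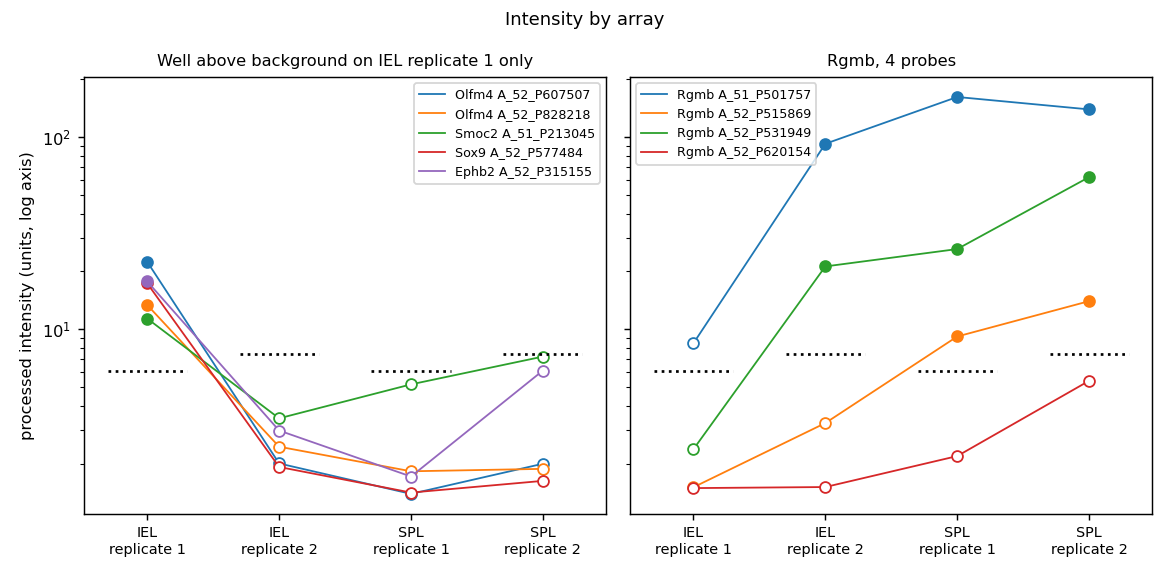
Processed intensity (vertical log axis, scanner units) on each array for the 5 probes well above background on IEL replicate 1 only (left) and for the 4 probes of *Rgmb* (right), with filled points where well above background, dotted lines at the dimmest probe so called on that array, and lines that join the values of a probe. The 5 probes on the left have 11.4 to 22.5 units on IEL replicate 1, and the 3 upper *Rgmb* probes are lowest there.

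*Rnf43* encodes a membrane ubiquitin ligase that removes Frizzled receptors from the cell surface and so restrains WNT signaling, and it is itself a WNT target. It was higher in CD8αβ+ IELs by A_51_P337101 (chromosome 11, 87548944 to 87549003), with 1162 and 1026 units on IEL replicates 1 and 2, and 719 and 544 units on SPL replicates 1 and 2. The levels were 1.90 and 1.24 in CD8αβ+ IELs and 0.58 and -0.15 in CD8αβ+ SPLs. They did not overlap, and IEL replicate 2 and SPL replicate 1 were neighbors in that order. The group means were 1.57 ± 0.47 (SD, n = 2) for CD8αβ+ IELs and 0.22 ± 0.52 (SD, n = 2) for CD8αβ+ SPLs. This is a log2 fold change of 1.35 (SE 0.40, 95% interval 0.27 to 2.43), or 2.55-fold, and limma gave an unadjusted p of 0.0248 and an adjusted p of 0.634. The difference was 2.05 on slide 1 and 0.65 on slide 2. The log2 fold change of *Rnf43* was 1.68 without IEL replicate 2 and 1.02 without IEL replicate 1. It was 1.72 without SPL replicate 1 and 0.98 without SPL replicate 2. The second probe, A_52_P78183, is annotated to another transcript accession (it begins 4985 bases away) and had 1.65 to 1.76 units, with no array called.

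*Axin2*, a scaffold of the complex that degrades β-catenin and a widely used readout of WNT signaling, was lower in CD8αβ+ IELs. Its probe A_52_P54176 (chromosome 11, 108811980 to 108812039) had 129.6 and 187 units on IEL replicates 1 and 2, and 261 and 476 units on SPL replicates 1 and 2. The levels were -1.27 and -1.22 in CD8αβ+ IELs and -0.88 and -0.35 in CD8αβ+ SPLs, with no overlap. The IEL arrays stood closer together than the SPL arrays did. The log2 fold change of -0.63 (SE 0.29, 95% interval -1.40 to 0.14) had an adjusted p of 0.634 from limma. The arrays of slide 1 gave -0.92 and those of slide 2 gave -0.34. The direction of *Axin2* was opposite to that of *Rnf43*, also a feedback inhibitor and target of the pathway, and neither difference passed the correction.

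**Figure D3:**
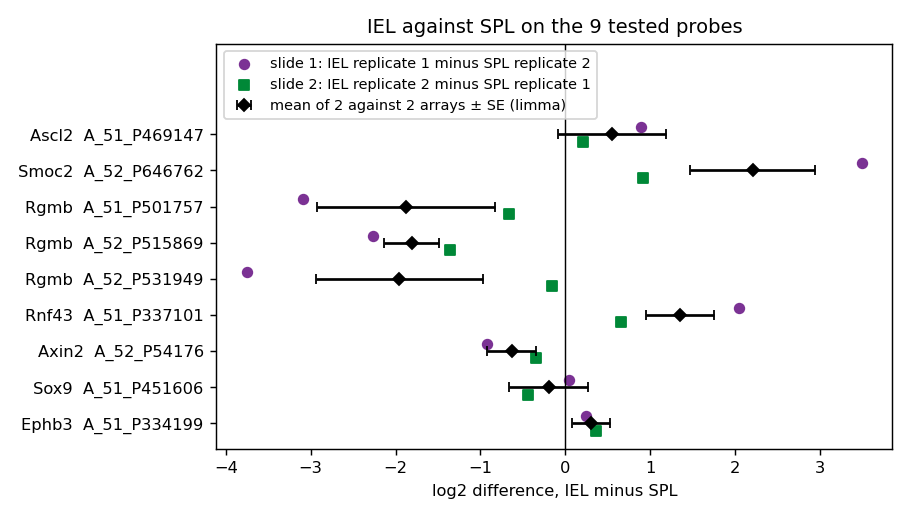
Log2 difference of CD8αβ+ IELs minus CD8αβ+ SPLs (horizontal axis) for the 9 tested probes, with the fitted mean of 2 against 2 arrays and its SE from limma (black diamonds and bars), and the difference on slide 1 (purple circles) and slide 2 (green squares). The *Rgmb* probes lie left of 0 and *Smoc2* and *Rnf43* right of 0 on both slides. Arrays below the background call are plotted as measured, so the slide 1 points of *Rgmb* and *Smoc2* are no bounds.

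*Sox9*, a transcription factor of the proliferative crypt that is also needed for Paneth cells, gave different pictures by its 3 probes. The intron-spanning A_51_P451606 had 9.94 and 6.66 units on IEL replicates 1 and 2 and 9.94 and 18.7 units on SPL replicates 1 and 2, well above background on all but IEL replicate 2. Its groups overlapped. The log2 fold change was -0.19 (0.39 under the second version of normexp, SE 0.46, 95% interval -1.44 to 1.05), and limma's adjusted p was 0.873. A_52_P577484, which begins 2698 bases further on, had 17.4 units on IEL replicate 1 and 1.92, 1.41 and 1.63 units on IEL replicate 2 and SPL replicates 1 and 2. It resembled *Olfm4*, with IEL replicate 1 at least 4.54-fold above SPL replicate 2 and at least 3.25-fold above IEL replicate 2. The last probe, A_52_P214630, was printed as 10 spots on each array and was not well above background on any. Its spots had a median of 4.27 units on IEL replicate 1 and of 1.77, 1.61 and 1.75 units on the other arrays, and 1, 9, 10 and 10 of them carried a surrogate value. The spots thus showed signal mostly on IEL replicate 1, below the level of a call.

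*Ephb2* and *Ephb3* encode receptors for ephrin-B ligands that, under WNT control, keep crypt cells in their place along the crypt. *Ephb2* was well above background by A_52_P315155 (chromosome 4, 136210602 to 136210661) on IEL replicate 1 only, with 17.8 units, against 2.97 units on IEL replicate 2 and 1.71 and 6.10 units on SPL replicates 1 and 2. On that probe IEL replicate 1 was at least 4.64-fold above SPL replicate 2, the other array of slide 1. It was also at least 3.32-fold above IEL replicate 2, and the groups overlapped. The intron-spanning probe of *Ephb2* had 1.61 to 4.33 units and was called on no array, so the signal of A_52_P315155 had no counterpart on the second probe.

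*Ephb3* was well above background on every array by its single probe (A_51_P334199, chromosome 16, 21223025 to 21223084), with 24.3 and 36.6 units on IEL replicates 1 and 2, and 31.4 and 39.6 units on SPL replicates 1 and 2. After scaling, the level was -3.68 and -3.57 in CD8αβ+ IELs and -3.93 on both CD8αβ+ SPLs. Scaling decides this order, since the unscaled intensity of IEL replicate 1 was the lowest of the 4, and under normexp the direction turned (-0.80). The log2 fold change was 0.30 (SE 0.23, 95% interval -0.30 to 0.91), and its adjusted p from limma was 0.644. Slide 1 gave 0.25 and slide 2 gave 0.36, so the size was similar on both.

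Over the 9 tested probes of 7 members, 4 were higher and 5 lower in CD8αβ+ IELs. Both IEL arrays lay above both SPL arrays on 3 of them (24.4% of all 27911 tested probes) and below on 4 (24.6%). The direction was the same on both slides for 8 probes, with 4 higher (35.8% overall) and 4 lower (35.9%). *Sox9* was the exception. *Rgmb* supplied 3 of the 4 probes that were lowest on IEL replicate 1 (38.8% of tested probes were so overall), *Axin2* being the other. On slide 1, with dim arrays taken as measured, 2 member probes, those of *Smoc2* and *Rnf43*, were higher in CD8αβ+ IELs by 2-fold or more (11.8% overall) and 3, all of *Rgmb*, lower by as much (13.7%). No member probe passed the adjusted threshold of 0.05 in limma, nor did any other probe (0% in either direction), and 0.634 was the lowest adjusted p. At an unadjusted p under 0.05, limma gave 3 member probes, 1 each of *Smoc2*, *Rnf43* and *Rgmb*, against 4.63% of all probes higher and 1.1% lower. The *Smoc2* probe, all 3 *Rgmb* probes and the *Sox9* probe passed the filter through the higher group alone. Their part in the counts above is therefore no support for a difference. Among probes well above background on all arrays, 1 member probe was left under that unadjusted p in limma, that of *Rnf43*. With 2 samples against 2, an exact permutation test cannot go below a two-sided p of 0.33. The median over the 7 genes was a log2 fold change of 0.30, against 0.00 (-0.00072) over all tested probes, and *Olfm4*, *Lgr5* and *Ephb2* do not enter that median because none of their probes was tested.

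The rest of the pathway was described by gene lists, and no gene of these lists passed the threshold in limma with all 4 arrays. Their counts changed by at most 1 gene when the scaling was changed, whereas normexp, which moved the median of all probes by -0.38, turned some of them, as given beside each. Among 15 other genes of crypt stem and progenitor cells, 12 were tested, of which 8 were higher and 4 lower, with a median log2 fold change of 0.25. They ran from *Hopx* (0.88), a marker of slow-cycling cells that T cells also express, to the integrin gene *Itga6* (-1.05). Without IEL replicate 2, 3 of the 12 fell and none rose, in a fit with a single IEL sample that called 11% of all tested probes lower and 8.53% higher. Of 11 tested genes among 15 other WNT targets, 4 were higher and 7 lower, with a median of -0.84, from *Mmp7* (3.57), which encodes the matrilysin of Paneth cells, to *Lef1* (-2.38). Normexp gave 2 higher and 9 lower, with *Mmp7* among the lower. In 6 of the 11, both CD8αβ+ SPLs lay above both CD8αβ+ IELs, against 24.6% of all tested probes. One of the 6, *Tnfrsf19*, was well above background on neither IEL array and passed the filter through CD8αβ+ SPLs alone. Its part in this count, and among the 4 lower crypt genes, is no support for a difference.

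The TCF/LEF factors and their cofactors were mostly lower in CD8αβ+ IELs, and they share genes such as *Lef1*, *Tcf7* and *Tcf7l2* with the WNT targets. Of 11 tested, 10 were lower and 1, *Tcf7l1* (0.59), was higher, with a median of -0.40, and both versions of normexp gave 9 lower and 2 higher. In 7 of these genes both CD8αβ+ SPLs lay above both CD8αβ+ IELs, a pattern of 24.6% of all tested probes. *Lef1* had 723 and 16270 units on IEL replicates 1 and 2, and 21980 and 31120 units on SPL replicates 1 and 2. IEL replicate 1 stood far below the other arrays, and the difference was -4.47 on slide 1 and -0.29 on slide 2. *Tcf7* had 1704 and 6262 units in CD8αβ+ IELs and 9574 and 11940 units in CD8αβ+ SPLs, a log2 fold change of -1.16 (SE 0.52, adjusted p 0.634 from limma). Without IEL replicate 2, 5 of the 11 factors fell and none rose, beside the same 11% lower and 8.53% higher overall from a single IEL sample.

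The upstream genes were described in the same way. All 4 tested genes among 11 WNT and R-spondin ligands were higher in CD8αβ+ IELs, from *Rspo4* (0.31) to *Wnt9b* (1.57), with a median of 0.76, but all 4 were lower under normexp (median -0.58). The other 7 ligands were not tested. Among 10 tested receptors, 3 were higher and 7 lower, with a median of -0.03, from the R-spondin receptor *Lgr4* (1.33) to *Fzd7* (-0.87). All 10 were lower under normexp and 9 were higher under its second version. *Fzd7* was well above background on neither IEL array, and *Fzd6*, also lower, was not on IEL replicate 1. Both passed the filter through CD8αβ+ SPLs alone, with dim arrays taken as measured. Their part in the count is no support for a difference. All 13 genes of the β-catenin complex were tested, with 10 higher and 3 lower and a median of 0.15, from *Dvl3* (0.85) to *Amer1* (-0.68). The 4 tested secreted antagonists and their receptors split into 2 higher and 2 lower, from *Sfrp5* (0.55) to *Kremen1* (-0.76), with all 4 lower under normexp. Of 5 tested ephrin-B ligands and other EphB receptors, 2 were higher and 3 lower, from *Ephb4* (0.64) to *Efnb3* (-0.62), against 5 lower under normexp and 4 higher under its second version.

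**Figure D4:**
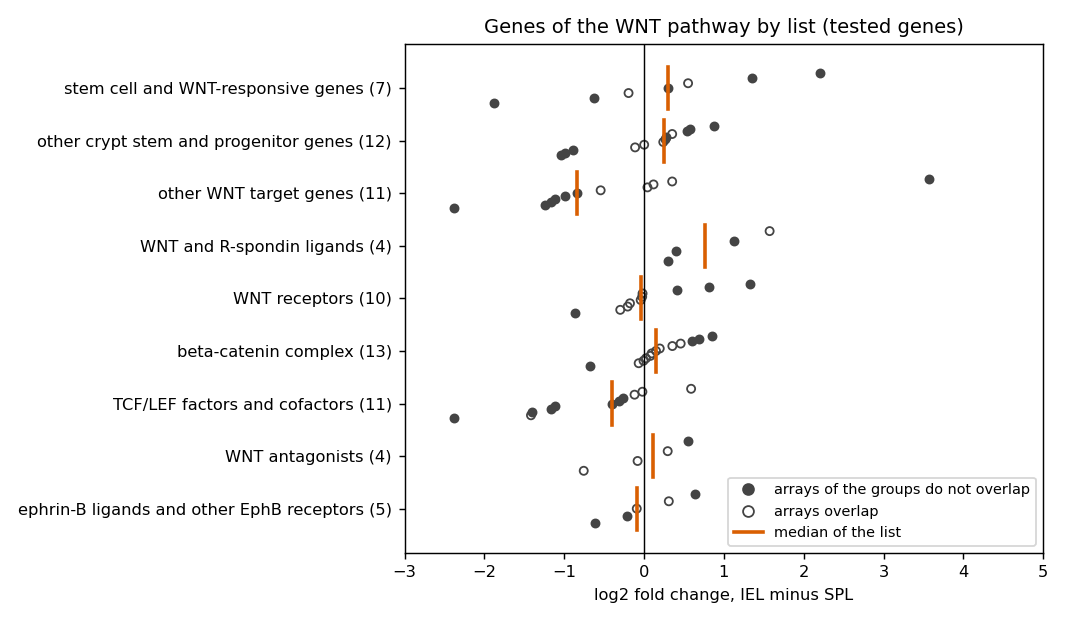
Log2 fold change of CD8αβ+ IELs against CD8αβ+ SPLs (horizontal axis) for the tested genes of each list (rows, number tested in parentheses), with filled points where the arrays of the groups do not overlap, open points where they do, and an orange bar at the median. The medians run from -0.84 for other WNT targets to 0.76 for the ligands, with the TCF/LEF list at -0.40.

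Markers of epithelial cells had their highest sum on IEL replicate 1, the array that alone had some member probes well above background. Other probes of *Smoc2* and *Sox9* were called on further arrays. The summed intensity of the 13 epithelial markers, as a multiple of the 75th percentile, was 25.0 and 4.18 on IEL replicates 1 and 2 and 1.79 and 0.544 on SPL replicates 1 and 2. Of these markers, 12 and 10 were well above background on IEL replicates 1 and 2, and 10 and 9 on SPL replicates 1 and 2. All 10 that were tested were higher in CD8αβ+ IELs without overlap (24.4% of all tested probes). *Krt20* among them was not well above background on SPL replicate 2 and passed the filter through CD8αβ+ IELs alone. Its part in that count is thus no support for a difference. The median difference of the 10 was 5.14 on slide 1 and 1.26 on slide 2, whereas under normexp 4 were higher and 6 lower. *Epcam*, the adhesion molecule of epithelial cells, had 123 and 41.0 units in CD8αβ+ IELs and 33.9 and 34.5 units in CD8αβ+ SPLs. IEL replicate 1 was the highest array, as it was for *Olfm4*.

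Secretory lineages of the crypt and villus showed the order of arrays of the epithelial sums. The sums on IEL replicates 1 and 2 and SPL replicates 1 and 2 were 913, 30.1, 18.5 and 10.2 for Paneth cell markers. For goblet cell markers they were 39.1, 4.56, 1.65 and 0.326, and for enteroendocrine markers 5.23, 0.957, 0.407 and 0.162. Enterocyte markers spanned less, with 3.63, 2.28, 1.30 and 0.726. Normexp turned the tested enterocyte markers from 9 higher and 1 lower in CD8αβ+ IELs to 1 higher and 9 lower. It gave 3 higher and 3 lower for enteroendocrine markers, 6 higher and 1 lower for goblet cell markers, and 10 higher and 1 lower for Paneth cell markers. On SPL replicate 2, 8 Paneth cell, 8 enterocyte, 7 goblet cell and 2 enteroendocrine markers were well above background. Tested markers not called there passed the filter through CD8αβ+ IELs alone, so their part in these counts is no support for a difference. The part of these epithelial lineages in the values of *Olfm4*, *Smoc2*, *Sox9* and *Ephb2* was not tested.

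Other cell types gave different orders. The sum of CD8 T cell markers was 673 on IEL replicate 1 and 767 to 799 on the other arrays. Stromal and endothelial markers had 27.3 to 34.4, a sum carried by *Acta2*. In that list *Pecam1* had 34.5 units on IEL replicate 1 against 346 to 644 units elsewhere. Proliferation genes had 56.6 on IEL replicate 1 and 38.0 to 43.7 elsewhere. B cell markers were lowest on IEL replicate 1, with 3.59 against 19.2 to 25.1, as were myeloid markers, with 47.8 against 67.8 to 87.8. The myeloid sum on IEL replicate 1 was nearly all *Lyz2*, and 8 of the 9 tested myeloid markers were lower in CD8αβ+ IELs, with a median difference of -3.67 on slide 1 and -0.30 on slide 2. *S100a8* had 3.66 units on IEL replicate 1, not well above background, against 2202 to 5126 units on the other arrays. On IEL replicate 1, 7 myeloid markers were called, and tested ones that were not, such as *S100a8*, passed the filter through CD8αβ+ SPLs alone. Their part in the count of lower markers is no support for a difference. *Rgmb*, *Lef1* and *Tcf7* were lowest on IEL replicate 1, and the part of B and myeloid cells in their values was not tested.

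**Figure D5:**
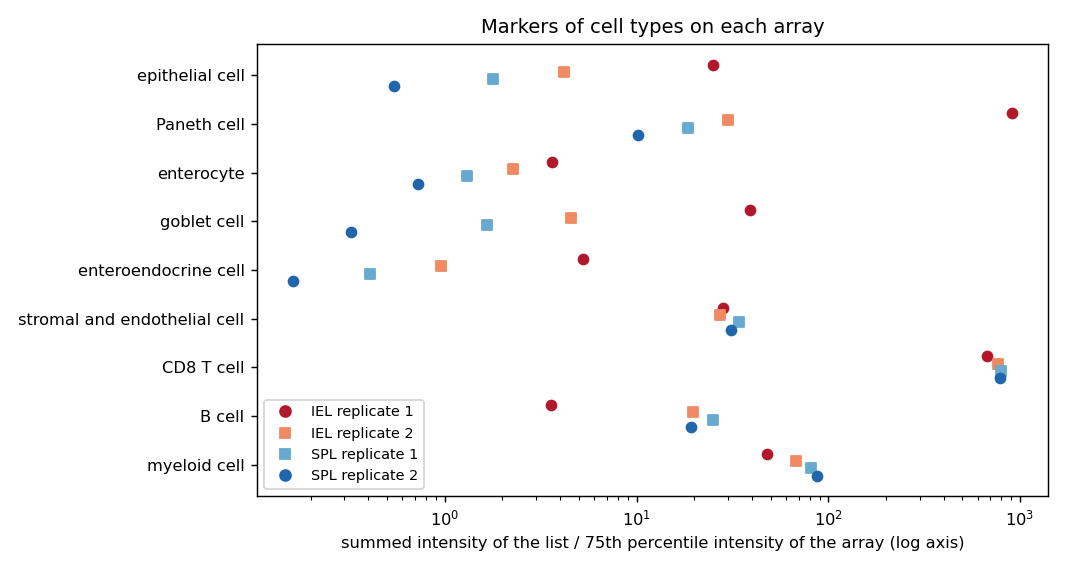
Summed intensity of the markers of each cell type divided by the array's 75th percentile (horizontal log axis) on the 4 arrays. IEL replicate 1 is highest for the 5 epithelial lists, from 3.63 for enterocytes to 913 for Paneth cells, and lowest for B cells and myeloid cells.

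The profiles of other genes across the 4 arrays were compared with those of *Rnf43* and *Axin2*, over 18466 other tested genes each and after subtraction of each gene's mean. The genes nearest to *Rnf43* were *Slc25a24* (distance 0.0608 on the log2 scale), *Nr5a2* (0.0723) and *Proser2* (0.106), and 283 genes lay within a distance of 0.5. Those nearest to *Axin2* were *AK136065* (0.0682), *2810025M15Rik* (0.0693) and *Usp6nl* (0.0813), with 1703 genes within the same distance. With 4 arrays, such a likeness describes the order and size of 4 values only.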

How the data were processed

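Whole mouse genome arrays of Agilent, labelled in 1 color, were hybridized with RNA of 2 CD8αβ+ IEL and 2 CD8αβ+ SPL samples. The authors deposited the scanner output, in which the processed intensity of a spot has a background subtracted within the array by Feature Extraction (10.7.3.1 per the file headers, 10.7.1.1 per the submitters' processing notes), and a table of log2 values that the authors had equalized between arrays. The methods name PrimeView chips instead, and no normalization.

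Here, the 75th percentile of all non-control spots on an array was subtracted from its log2 processed intensities. Spots marked as outliers were left out (98 to 179 per array, 2 of member probes), and spots of a probe were averaged on the log2 scale. A probe was tested if it was well above background on both arrays of at least 1 group and had a value on every array, which held for 27911 of 41174 probes. No spot was saturated (0 on each array). Precision is limited by having 4 arrays. The comparison of groups used limma 3.58.1, under R 4.3.3 and with the data.table package (1.17.8) to read files, two-sided, with no block, 2 residual degrees of freedom and Benjamini-Hochberg adjustment over all tested probes at 0.05. Lower limits of folds and list summaries are descriptions without a test.

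Samples were not treated as paired by replicate number. The deviations of arrays with the same number from their group means had a correlation of -0.025 across probes. Such arrays lay on different slides, so this value cannot separate pairing from slide and does not show that pairing is absent. All 10 members are named with every probe. Of each pathway list the highest and lowest tested genes are named. Others named are *Tcf7*, *Tcf7l2*, *Tnfrsf19*, *Fzd6* and the markers *Cd3e*, *Cd8a*, *Epcam*, *Krt20*, *Acta2*, *Pecam1*, *Lyz2* and *S100a8*. These were chosen after their values were seen. The 3 nearest profiles are given for the 2 tested members with the highest mean level, since *Lgr5* and *Olfm4* were not tested. A gene with several probes is represented in lists by its brightest tested probe. The members and lists were chosen with earlier results of these data known. Symbols are those of the array annotation on mm9. All 10 are symbols of RefSeq (GRCm38.p6), and 13 of the 20 probes match their gene there by accession.

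Alternatives were scaling by the array median, scaling over probes called on all arrays, quantile normalization, normexp with an offset of 50 in 2 versions, the authors' log2 values, 3 other filters on dim probes, marked spots kept, a variance trend, the methods' unpaired test, a block for the replicate number or the slide, each array left out, and the mean of a gene's probes. The study's other assays were not analysed here.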

Additional observations from a re-analysis of the deposited data

How the results depend on the processing

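The count of member probes past the threshold in limma was 0 with all arrays and under each alternative but 1, and it ran from 0 to 4 with each array left out in turn, the 4 being those without IEL replicate 2 (3 of *Rgmb* and 1 of *Rnf43*). With the replicate number as a block the count was 0, and 4 member probes instead of 3 had an unadjusted p under 0.05 in limma. The block changed no call. With the slide as a block the count was also 0, with 1 member probe at that unadjusted p, and the unpaired test of the methods gave 0 after adjustment and 2 before. The median of the member genes, 0.30 on the log2 scale, was -0.80 under normexp, 0.87 without a filter on dim probes, 0.55 with a filter by negative control spots, and 0.0923 (without SPL replicate 2) to 0.36 (without IEL replicate 1) with each array left out. The median of all probes moved as well, by -0.38 under normexp and to 0.15 without the filter, and the median without a filter includes genes below background. Under normexp, *Ascl2* turned to -0.55, *Smoc2* to -0.91 and *Ephb3* to -0.80, while under its second version, fitted without spots far below their local background, *Sox9* turned to 0.39 and the *Rgmb* probe A_52_P515869 to 0.25, where the median of all probes was 0.15. With each array left out, *Ascl2* was lowest without SPL replicate 2 (-0.22) and highest without SPL replicate 1 (1.32). *Sox9* was lowest without IEL replicate 1 (-0.72) and highest without IEL replicate 2 (0.33), and it was 0.0923 without SPL replicate 2. The cause of these turns was not tested. *Rnf43* (0.98 to 1.72), *Axin2* (-0.90 to -0.36) and the *Rgmb* probes A_51_P501757 (-3.36 to -0.39) and A_52_P531949 (-3.30 to -0.08) kept their direction under every alternative that gave them a value. Signal over background limits *Lgr5*, *Olfm4*, *Ephb2* and the dimmer probes of the other members to lower limits or to no fold.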
